A study of Homo sapiens with 2 samples.

Results

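To describe where NUDT21 CUT&Tag signal lay at long noncoding RNA (lncRNA) promoters away from protein-coding promoters, peaks of 2 biological replicates of J.gamma1 were sorted by distance to annotated transcript starts. J.gamma1 is a cell line of T-cell acute lymphoblastic leukemia (T-ALL) from a human. Both samples were made with an antibody to NUDT21 (Proteintech) and the Vazyme Hyperactive Universal kit, the labels name no treatment or genetic change, and they formed 1 group with no control sample analysed here. Read totals are unknown, and the fold and −log10 p of each peak gave the fragments at its summit. The fold and −log10 p also give a level for the local background, called the control level below. With 1 group of 2 samples no test between groups was possible, so values are given for each replicate side by side.

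A lncRNA-only promoter peak lay within 1 kb of a GENCODE 44 lncRNA transcript start and more than 3 kb from every transcript start of a protein-coding gene, on chromosomes 1 to 22, X and Y. It also touched a peak of the other replicate by at least 1 bp. Of 92722 replicate 1 peaks, 7154 lay within 1 kb of a lncRNA start, and 4063 of these were left out because a coding start was within 3 kb. The remaining 3091 met both distances, and 1825 of them touched a replicate 2 peak, which was 1.97% of the list. Replicate 2 had 66671 peaks, 5268 near a lncRNA start, 2166 that met both distances and 1927 that touched replicate 1, which was 2.89% of its list. Merged by overlap, the members formed 1913 regions, and 1676 of these held members of both lists. The others held members of replicate 1 only (104) or replicate 2 only (133), since a member can also touch a peak of another class. Starts of other gene types, such as pseudogenes and small RNAs, did not count in the rule. They lay within 1 kb of 276 members (15.1%) in replicate 1 and 281 (14.6%) in replicate 2.

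NUDT21 is the small subunit of cleavage factor Im, which binds UGUA in nascent RNA and helps to choose where a transcript is cleaved and polyadenylated. CUT&Tag uses the antibody to tether Tn5 transposase and reads the DNA close to the protein, whether the protein holds DNA, RNA or another protein. Many lncRNAs are made by RNA polymerase II from promoters of their own, and some serve as hosts for small nucleolar RNAs (snoRNAs) or microRNAs, while others stay in the nucleus. A peak has no strand, so strand below is that of the annotated starts. Offsets of summits are from the lncRNA transcript start nearest to the replicate 1 summit, which can lie inside the gene. They are signed, positive into the gene and negative upstream.

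To show the DNA under the signal, 151 bases centred on the replicate 1 summit are given for 6 regions, read from hg38 on the strand of the lncRNA, 5′ to 3′, with CpG dinucleotides in capitals. The first 5 have summits close to an annotated start and include nuclear lncRNAs, lncRNA hosts of small RNAs and a leukemia lncRNA. The last, at an internal start of its gene, shows a CpG-poor window, which was the usual kind. The intervals are chr11:65497562-65497712 (plus strand) for MALAT1, chr11:65422584-65422734 (plus) for NEAT1, chr17:35568028-35568178 (plus) for SNHG30, chr13:50082004-50082154 (minus) for DLEU2, chr15:99014696-99014846 (plus) for LUNAR1 and chr14:95524227-95524377 (minus) for SNHG10.
MALAT1: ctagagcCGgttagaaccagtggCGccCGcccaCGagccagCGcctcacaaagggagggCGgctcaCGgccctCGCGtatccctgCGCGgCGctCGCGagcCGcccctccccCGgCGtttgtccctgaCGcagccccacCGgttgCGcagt
NEAT1: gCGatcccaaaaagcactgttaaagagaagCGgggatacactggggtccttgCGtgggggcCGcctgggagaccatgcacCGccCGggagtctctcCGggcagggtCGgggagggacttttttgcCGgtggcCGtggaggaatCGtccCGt
SNHG30: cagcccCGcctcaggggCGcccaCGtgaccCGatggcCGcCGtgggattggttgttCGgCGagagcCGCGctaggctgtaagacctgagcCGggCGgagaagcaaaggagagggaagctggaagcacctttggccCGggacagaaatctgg
DLEU2: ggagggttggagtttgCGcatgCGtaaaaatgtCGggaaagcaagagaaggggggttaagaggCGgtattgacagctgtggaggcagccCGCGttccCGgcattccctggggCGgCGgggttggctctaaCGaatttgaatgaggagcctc
LUNAR1: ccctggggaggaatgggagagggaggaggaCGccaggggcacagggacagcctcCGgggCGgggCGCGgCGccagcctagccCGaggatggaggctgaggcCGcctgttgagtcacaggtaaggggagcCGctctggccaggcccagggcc
SNHG10: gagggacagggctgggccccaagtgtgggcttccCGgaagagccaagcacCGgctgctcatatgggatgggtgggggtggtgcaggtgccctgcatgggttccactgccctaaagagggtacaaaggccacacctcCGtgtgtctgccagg
The MALAT1 window held 20 CpG and was 72.8% G or C, and the LUNAR1 window held 9 CpG and was 73.5% G or C. The SNHG10 window was 64.2% G or C with 3 CpG, so a high GC content did not come with many CpG there.

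Agreement between the replicates was measured first, because it decided membership. Of the peaks that met both distances, 59.0% in replicate 1 (95% Wilson interval 57.3 to 60.8) touched the other list, where all peaks of that list did so in 56.4%. In replicate 2 the share was 89.0% (87.6 to 90.2), where all peaks had 85.7%. Wilson intervals cover counting error only. The mean of both was 74.0% ± 21.2 (SD, n = 2), and the gap between replicates went with the longer list of replicate 1. Coding-promoter peaks, within 1 kb of a protein-coding start, touched in 69.6% and 94.4%, and distal peaks, away from both kinds of start, in 49.6% and 80.3%. Peaks that met both distances were therefore a little above the level of their lists and between both other classes. By quartile of fold over the whole list, the share was 34.4% in the lowest and 86.1% in the highest in replicate 1. All peaks had 36.0% and 82.1% there. In replicate 2 the share was 80.4% and 98.5%, where all peaks had 76.2% and 96.7%, so the rise with fold was that of the whole list.

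Fold enrichment, the ratio of signal at the summit to the local background as the authors' peak caller gave it, had a median of 4.54 at members in replicate 1 and 4.41 in replicate 2, a mean of 4.47 ± 0.0930 (SD, n = 2). Coding-promoter peaks that touched the other list had medians of 5.09 and 4.70, and distal peaks that touched had 4.16 and 4.18. The members' quartiles were 3.61 and 6.002 in replicate 1, and 3.53 and 5.64 in replicate 2, so the classes overlapped widely. Peaks that met both distances but touched no peak of the other list were weaker, with medians of 3.43 and 3.59. The median member had 37 fragments at its summit and a control level of 7.0 in replicate 1, and 21 fragments and 3.90 in replicate 2, so replicate 1 gives the more precise folds. Members were shorter than coding-promoter peaks, at a median of 1044 bp against 1306 bp in replicate 1 and 792 bp against 910 bp in replicate 2.

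**Figure D1:**
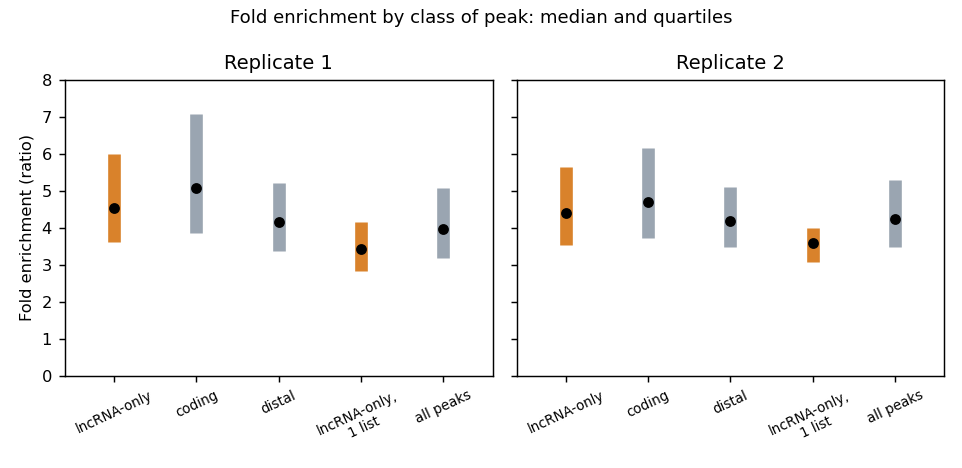
Median (points) and quartiles (bars) of fold enrichment, a ratio, for 5 classes of peak in each replicate; lncRNA-only peaks that touch the other list and those found in 1 list are in orange. Medians of lncRNA-only members lie between those of coding-promoter and distal peaks in both replicates.

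Across the 1676 regions with members of both lists, Spearman's rho between the fold in replicate 1 and that in replicate 2 was 0.685. This is a description over regions, which are not independent replicates. Folds differed by more than 2 times between replicates in 57 regions, 49 of them higher in replicate 1. In 33 regions both folds were above 10, and in 2 both were above 20. Summits of the replicates lay a median of 123 bp apart, and in 1056 regions (63.0%) they lay within 200 bp.

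**Figure D2:**
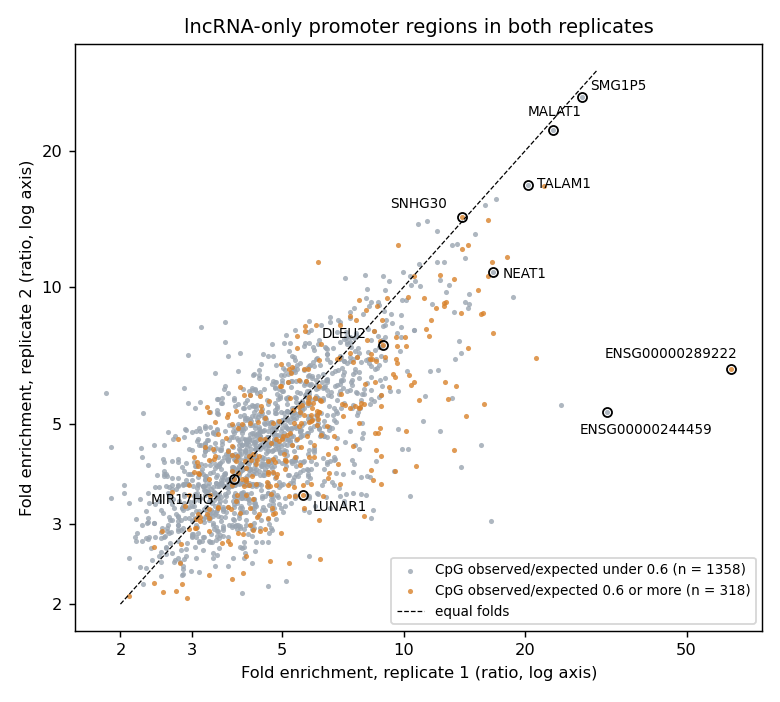
Fold enrichment of each of the 1676 regions in replicate 1 and replicate 2 on log axes, with the regions of CpG observed/expected 0.6 or more in orange and a dashed line of equal folds. SMG1P5 and MALAT1 lie at the upper end near the line, while ENSG00000289222 and ENSG00000244459 lie far to the right of it.

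A cutoff of 0.6 on the CpG ratio divided the members into a smaller and a larger group, which were not tested as separate kinds. The ratio of observed to expected CpG, which is high in CpG islands, reached 0.6 in 18.0% of members in replicate 1 and 17.6% in replicate 2. Coding-promoter peaks reached it in 33.0% and 31.1%, and distal peaks in 3.45% and 3.51%. GC content followed the same order over a narrow range, with member medians of 59.1% and 59.0% (mean 59.05% ± 0.0635, SD, n = 2) against 60.5% and 60.2% at coding promoters and 57.5% in both lists at distal peaks. The CpG-rich group held 318 regions, with median folds of 5.41 and 4.73, and the other 1358 regions had 4.43 and 4.40. The difference between groups was therefore larger in replicate 1 than in replicate 2. Control levels were also higher in the CpG-rich group, with medians of 8.0 against 6.72 and 4.46 against 3.90, and their part in the folds was not tested.

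The position of the signal differed in the same way. The replicate 1 summit lay within 250 bp of a lncRNA start in 595 of 1676 regions (35.5%), and within 1 kb in 80.4%, with a median offset of 12 bp into the gene. In CpG-rich regions 69.5% of summits lay within 250 bp, and in the others 27.5% did. Single members gave like values, 68.0% (62.8 to 72.8) against 25.8% (23.6 to 28.1) in replicate 1 and 63.1% (57.9 to 68.1) against 26.3% (24.2 to 28.5) in replicate 2. Coding-promoter peaks showed the same split at their own starts, with 80.7% against 33.0% in replicate 1 and 73.2% against 29.7% in replicate 2. The peak itself covered a lncRNA start in 1021 members (55.9%) of replicate 1 and 924 (47.9%) of replicate 2, and the others lay beside one. Each replicate 1 summit was given the first place that fitted of lncRNA exon, coding exon, lncRNA intron and coding intron. By that order, 550 regions (32.8%) had the summit in a lncRNA exon and 512 (30.5%) in a lncRNA intron. A coding exon was given in 63 and a coding intron in 152, so these counts are not all summits inside coding genes. The summit lay outside both kinds of gene in 399 (23.8%). A lncRNA start within 1 kb was required, so the lncRNA shares cannot be read as a preference.

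**Figure D3:**
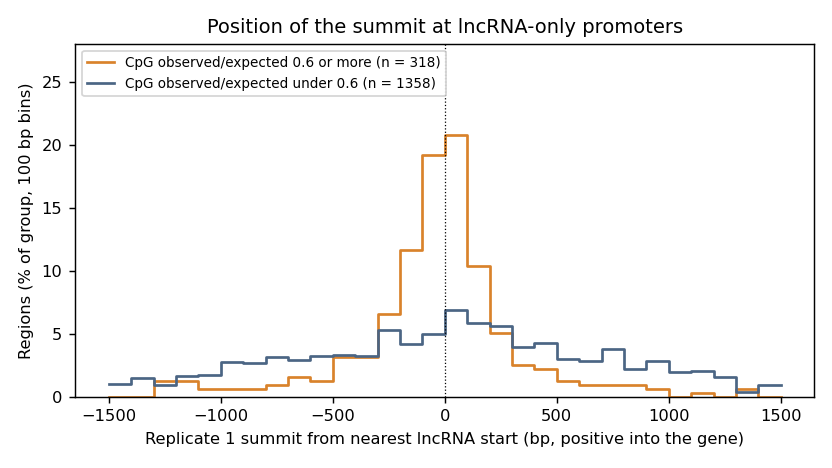
Share of regions (percent of each group, 100 bp bins) by distance from the nearest lncRNA start to the replicate 1 summit, positive into the gene, for 318 CpG-rich and 1358 other regions. The CpG-rich regions peak at the start, and the others spread over more than 1 kb on both sides.

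Motif words were counted within 100 bp of each summit on both strands, with the share over all peaks that touched the other list as background. TGTA, the DNA form of the NUDT21 RNA motif, was present in 42.9% of members in replicate 1 and 44.2% in replicate 2, where all touching peaks had 47.0% and 48.8%. GGGCGG, a core often bound by SP1-family factors, was present in 24.6% and 20.2%, where all touching peaks had 21.5% and 18.2%. In CpG-rich members it was present in 57.0% and 45.7%. The word itself holds a CpG and these members were chosen by CpG ratio, so their share cannot be read against that background. CCAAT, the box bound by NF-Y, was present in 16.9% and 16.2% of members, where all touching peaks had 14.6% and 14.9%. TATAAA was present in 1.26% and 1.35%, where all touching peaks had 1.38% and 1.52%. AATAAA, the polyadenylation signal, was present in 2.96% and 3.58%, where all touching peaks had 3.13% and 3.66%. GC content moved with these words, with a mean of 62.2% and 61.0% in member windows and 59.8% and 59.1% in distal windows, and its part was not tested.

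At the level of genes, 1611 lncRNA genes had a member within 1 kb of a start in both lists. Counted over the 14015 lncRNA genes with at least 1 start more than 3 kb from coding starts, 1594 did so, which was 11.4%. For comparison, 10760 of 20033 protein-coding genes (53.7%) had a peak within 1 kb of a start in both lists, as did 46.9% of the 4851 lncRNA genes whose starts all lay within 3 kb of coding starts. A region held 1 lncRNA gene in 1485 cases and 2 to 4 in 191 cases, and in the latter the signal cannot be given to 1 gene. In 1381 regions (82.4%) a member lay within 1 kb of the 5′-most start of at least 1 lncRNA gene, and 295 had internal starts only. Of the 14015 genes, 8893 had 1 transcript and so no internal start, and this share cannot be read as a preference. Of the 1594 genes, 1042 had no symbol beyond their Ensembl identifier.

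Kinds of lncRNA gene differed in how often they had a member. Among genes named SNHG, which carry snoRNAs in their introns, 14 of 20 (70.0%, 95% Wilson interval 48.1 to 85.5) had one. The share was 24.7% (16.2 to 35.6) of 73 genes named as microRNA hosts and 25.4% (22.3 to 28.8) of 681 genes with other symbols. It was 11.3% of 954 antisense genes, 10.4% of 2197 LINC genes and 10.6% of 9860 genes without a symbol. Genes named as divergent (5.22% of 115) and as intronic or overlapping transcripts (3.48% of 115) had the lowest shares. The rule leaves out any peak within 3 kb of a coding start, also at starts of these genes, and its part in their shares was not tested. Genes with 5 or more transcripts had a member in 17.0% of 2075 cases and those with 1 transcript in 9.91% of 8893 cases, and a gene with more starts has more chances to count.

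**Figure D4:**
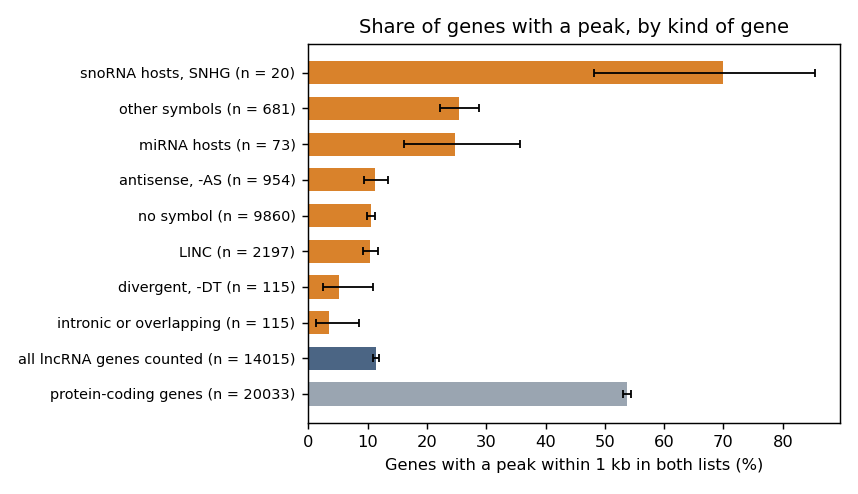
Percent of genes (bars) with 95% Wilson intervals (lines), for 8 kinds of lncRNA gene with a start over 3 kb from coding starts, all such lncRNA genes and all protein-coding genes. The lncRNA bars count genes with a member in both lists. The protein-coding bar counts any peak within 1 kb of a start in both lists, a wider measure. The SNHG bar reaches 70.0%, above the 53.7% of protein-coding genes, but its interval over 20 genes reaches from 48.1 to 85.5.

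The 10 strongest regions by the sum of fold ranks included both lncRNAs of known function and genes without a symbol. First was SMG1P5 (ENSG00000291266.1, minus strand), a transcribed relative of the SMG1 kinase gene that GENCODE also counts among lncRNAs. Its region on chromosome 16, 30334400 to 30338673, had a fold of 27.7 in replicate 1, where 119 fragments stood against a control level of 3.0, and of 26.3 in replicate 2, where 67 stood against 1.59. The summits lay 338 and 249 bp downstream of a transcript start. No other place on the main chromosomes matched its summit windows at 95% identity.

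MALAT1, an abundant nuclear lncRNA that is kept in speckles, was second. Its peak on chromosome 11, 65495910 to 65498654, had a fold of 23.4 with 202 fragments in replicate 1 and of 22.2 with 83 fragments in replicate 2. Its summits lay at -3 and -74 bp from the nearest MALAT1 start. The region also held a start of ENSG00000270117 on the other strand, head to head with MALAT1, so the signal cannot be given to MALAT1 alone. TALAM1 (ENSG00000289740.1, minus strand), its antisense partner, was the fourth. Its start at 65507432 lies inside MALAT1, close to the annotated MALAT1 end at 65508073, and the peak there, 65506620 to 65510678, had folds of 20.3 with 131 fragments and 16.8 with 72 fragments. Both regions were thus among the 10 strongest, and the TALAM1 summits, 432 and 448 bp from that start, lay in annotated lncRNA exon. Reads from a MALAT1 end and a TALAM1 start cannot be told apart. NEAT1, the scaffold of paraspeckles and the neighbour of MALAT1, shared its region with a start of ENSG00000290057 and had folds of 16.7 with 92 fragments and 10.8 with 37 fragments, with summits at -115 bp in replicate 1 and 553 bp in replicate 2.

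Of the 10 strongest regions, 6 had a gene without a symbol nearest to the summit. ENSG00000290122 on chromosome 1, inside CROCC, had the most fragments of the 10, 264 in replicate 1 and 146 in replicate 2, with folds of 22.2 and 16.7 over control levels of 10 and 7.80. ENSG00000289593 on chromosome 1 lay 3424 bp from a start of MEF2D, a transcription factor gene, and just passed the 3 kb limit, with folds of 16.9 and 15.7. The regions of ENSG00000267649 (chromosome 19, folds 15.9 and 15.2) and ENSG00000271780 (chromosome 14, folds 16.1 and 14.1), like those of ENSG00000290122 and MALAT1, held lncRNA starts on both strands. ENSG00000288618 on chromosome 19, in a region shared with LINC01764, had folds of 18.0 and 11.6, with summits at -1155 and -883 bp from its start. ENSG00000262879 on chromosome 17 had folds of 14.99 and 13.1 in a peak of under 1 kb, with the summit at the same base in both replicates, 29 bp into a transcript.

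snoRNA hosts carry snoRNAs, guides for the modification of ribosomal and small nuclear RNA, in introns of their transcripts. Of 24 such genes with a start far from coding starts, 16 had a member in both lists (66.7%, 46.7 to 82.0, where all lncRNA genes counted had 11.4%), in 24 regions with median folds of 4.64 and 5.07. SNHG30 (chromosome 17, 35567217 to 35568530) was strongest, with folds of 13.9 and 14.3. SNHG29 followed with 9.61 and 7.402 and rested on 145 and 60 fragments, and its summits lay 10 and 11 bp downstream of a transcript start. SNHG15 had 8.14 and 7.64, with both summits at 8 bp from a transcript start. SNHG10 differed more between replicates, with 10.2 and 6.55, also at an internal start. ZFAS1, named for its antisense position to ZNFX1, had 7.75 and 7.14 at an internal start, with summits at -954 and -942 bp from it. SNHG12 had 2 regions, with folds of 5.70 and 8.19 at 28581020 to 28583074 on chromosome 1 and of 5.70 and 6.14 at 28579944 to 28580528. The second lay at internal starts only. GAS5 and SNHG5, also in the list, had peaks in both replicates that did not count because they lay within 3 kb of a coding start. Across all members, 38 regions (2.27%) had a snoRNA or snRNA start within 1 kb, with median folds of 5.76 and 5.23. The same share was not computed for other peaks. Their median CpG ratio in replicate 1 was also higher, at 0.673 against 0.350 over all regions.

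SNHG17 on chromosome 20 had the most members of all lncRNA genes, 7 in replicate 1 and 8 in replicate 2, in 7 regions along its 15772 bp. The strongest, 38421514 to 38422321, had folds of 5.36 and 6.64, and the weakest, 38424619 to 38425035, had 2.84 and 3.26. It has 118 annotated transcripts and so many starts that can count. LINC00963 on chromosome 9 was second, with 5 and 8 members, and 3 genes with 12 members in all shared the next place, ENSG00000233183, LINC01503 and MIR9-1HG.

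MicroRNA hosts are processed into microRNAs that repress messenger RNAs. Of 74 such genes, 19 had a member in both lists (25.7%, 17.1 to 36.6, where all lncRNA genes counted had 11.4%), in 35 regions with median folds of 5.74 and 5.54. MIR9-1HG on chromosome 1 had the strongest, with folds of 10.6 in both replicates and summits at -113 and -114 bp from its 5′-most start, and a second region at an internal start with 6.97 and 7.05. MIRLET7BHG on chromosome 22, host of let-7 microRNAs, had folds of 12 and 8.99 at an internal start, in a region shared with starts of ENSG00000289044 and LINC02939 so that the signal cannot be given to 1 gene, and of 8.16 and 8.08 in a region farther along. MIR646HG had 7.62 and 8.48 at an internal start, and MIR762HG, antisense to BCL7C, had 7.38 and 8.64. MIR23AHG had 13.1 in replicate 1 and 5.68 in replicate 2, but in a region of over 10 kb where the summits lay 10668 bp apart, so both values belong to different parts of it.

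DLEU2 and DLEU1 on chromosome 13 lie in a region that is often deleted in chronic lymphocytic leukemia and have head-to-head starts, and DLEU2 hosts miR-15a and miR-16-1. Their shared region, 50081606 to 50082977, had a fold of 8.88 with 76 fragments in replicate 1 and of 7.45 with 36 fragments in replicate 2, with summits at -17 and 32 bp from the nearest DLEU2 start. Starts on both strands were present in 153 regions, with median folds of 5.57 and 5.001, where regions with plus-strand starts alone had 4.55 and 4.40 and those with minus-strand starts alone 4.45 and 4.43. In 108 regions a minus start lay within 1 kb upstream of a plus start, and 83.3% of these had the replicate 1 summit within 250 bp of a start. A region with several starts has more places that count as near, and its CpG ratio was also higher, at a median of 0.630 for head-to-head pairs against 0.350 over all regions.

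Among lncRNAs tied to T cells or leukemia, 4 of 18 genes had a member in both lists (22.2%, 9.001 to 45.2, an interval that holds the 11.4% of all lncRNA genes counted), in 4 regions with median folds of 4.71 and 4.22. LUNAR1, a NOTCH1-dependent lncRNA of T-ALL that acts on IGF1R, had a fold of 5.65 with 48 fragments in replicate 1. Its summit lay 2 bp downstream of a transcript start. In replicate 2 its peak was 3.48 with 10 fragments and a summit 533 bp downstream of that start, which was covered in replicate 1 only. The replicate 1 summit window also had 1 near-identical copy elsewhere. MIR17HG, host of the miR-17-92 cluster that MYC activates, had 3.81 with 90 fragments and 3.77 with 28 fragments, over control levels of 21 and 6.68, and both folds lay below the members' medians. Its summits lay 1602 bp apart, at -79 and -1681 bp from a transcript start. The replicate 2 peak ended upstream of the gene, so both values belong to different parts of the region. THRIL, an lncRNA tied to TNF expression, had 4.81 and 6.18. MIR4435-2HG had 4.62 and 4.67 at an internal start, and each of its summit windows had 1 near-identical copy. Its paralog CYTOR, also on chromosome 2, had 3.48 and 4.23 at an internal start and was named here after its values were seen. Signal at these regions may belong to either copy. Of the 14 genes of the list without a member in both lists, MIR155HG had no peak within 1 kb of a start in either list.

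Nuclear and chromatin lncRNAs had a member at 9 of 18 genes (50%, 29.0 to 71.0, where all lncRNA genes counted had 11.4%), in 11 regions with median folds of 5.64 and 4.23. Beside MALAT1 and NEAT1, CASC15 had 2 regions at internal starts, with folds of 6.11 and 5.34 and of 6.15 and 5.02. The first was shared with NBAT1, the antisense partner of CASC15. FTX, in the X inactivation centre, had 6.80 and 4.43. NORAD, a cytoplasmic RNA that binds PUMILIO proteins, shared its region with ENSG00000234139 and had 5.64 and 3.66, and KCNQ1OT1, which silences genes in cis at an imprinted locus, had 4.15 and 3.66. PVT1, next to MYC, had 4.07 and 3.70 at an internal start 310146 bp from the nearest MYC start. The other 3 regions, also at internal starts, had folds from 2.77 to 4.23. A gene counted with a member at any start, so the 50% also holds genes with members at internal starts only. H19 had 4 peaks in replicate 1 that met both distances, none of which touched a replicate 2 peak, and was named after its values were seen.

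Neighbouring coding genes were then examined. The nearest coding start lay a median of 18347 bp from a region, with quartiles of 7928 and 43296 bp. It was on the same strand as the nearest lncRNA start in 743 regions, head to head in 472 and facing in 461. The summit lay inside no coding gene in 1232 regions (73.5%), antisense inside one in 322 (19.2%) and on the same strand inside one in 111 (6.62%), with the rest in genes of both strands. Folds were alike, with medians of 4.62, 4.45 and 4.16 in replicate 1 and 4.49, 4.34 and 4.26 in replicate 2. From the 5′-most start, 26.6% of 1542 lncRNA genes with a member and 27.8% of 11864 genes without one lay head to head with the nearest coding start, and 18.0% and 19.03% lay antisense inside a coding gene. Genes with a member lay closer to coding starts, at a median of 19518 bp against 48016 bp, and the antisense shares were farther apart at like distances. They were 35.4% with and 41.1% without a member where the coding start was within 10 kb, 14.9% and 24.5% at 10 to 50 kb, and 2.36% and 7.55% beyond 50 kb. Shares outside coding genes were 51.5% and 39.5%, 79.3% and 65.5%, and 94.99% and 89.0% at the same distances.

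The peak state of the neighbour differed much more. The nearest coding gene had a peak within 1 kb of a start in both lists for 80.3% (78.2 to 82.2) of lncRNA genes with a member and for 33.1% (32.2 to 33.9) of those without. This held at each distance, with 91.2% against 52.2% where the coding start was within 10 kb, 80.0% against 36.3% at 10 to 50 kb and 66.7% against 24.1% beyond 50 kb. Turned round, 24.0% of the 5161 lncRNA genes whose neighbour had a peak had a member, and 3.69% of the 8245 others. The share of lncRNA genes with a member was highest with a coding start 5 to 10 kb away, 21.7%, and lowest beyond 200 kb, 1.81%. It was 11.0% at 3 to 5 kb, where the rule leaves out any peak that reaches within 3 kb. Median folds of the regions were 5.08 and 4.87 at 3 to 5 kb from a coding start and 4.32 and 4.15 beyond 50 kb.

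**Figure D5:**
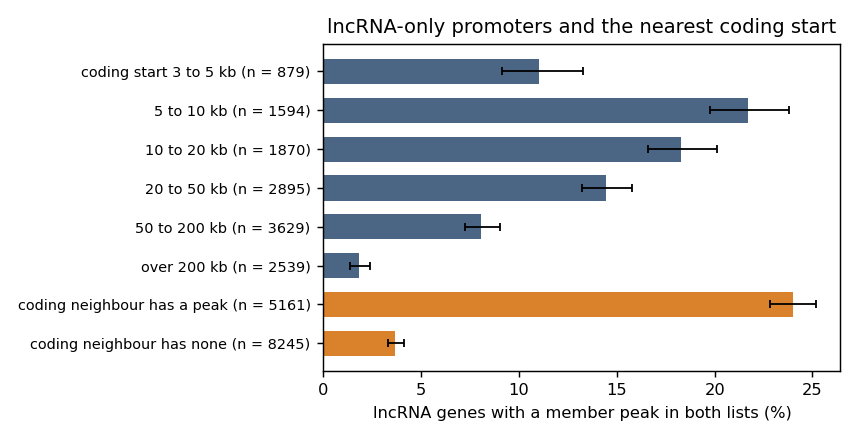
Percent of lncRNA genes with a member in both lists (bars) and 95% Wilson intervals (lines) by distance to the nearest coding start and by whether that coding gene has a peak of its own in both lists. Genes whose neighbour has a peak reach 24.0% and the others 3.69%.

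Chromosomes differed along the same line. The share of lncRNA genes with a member was 31.5% on chromosome 22, 29.5% on 17 and 29.2% on 19, and 3.08% on 4, 3.45% on 18 and 3.56% on 8. The share of coding genes with a peak was 81.7%, 78.8% and 79.1% on the first 3 and 27.0%, 30.8% and 38.5% on the last 3. Over 23 chromosomes, without Y, rho between these shares was 0.923, and rho between the lncRNA share and GC content was 0.876. Both are descriptions over chromosomes that share the libraries, and the part of GC content was not tested.

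Coding genes of the T lineage were the nearest neighbours of 7 regions, with median folds of 4.07 and 3.88. ENSG00000286153, antisense to RUNX1, a hematopoietic transcription factor gene, had folds of 6.12 with 56 fragments and 6.96 with 37 fragments. Its region lay 4182 bp from a RUNX1 start. The replicate 1 peak lay upstream of the lncRNA start and the replicate 2 peak covered it, with summits at -1309 and -1774 bp. BCL11B, which sets T-cell identity, was nearest to 3 regions, at ENSG00000289137 (4.81 and 5.36), ENSG00000229402 (6.35 and 3.96) and ENSG00000235785 (3.59 and 2.91). MYC was nearest to the PVT1 regions, and ENSG00000285165, antisense inside IKZF1, had 3.05 and 2.95. All but the RUNX1 region and the first 2 at BCL11B had a fold of 4.07 or less in replicate 1, and none was among the 10 strongest. For the label itself, 8 of 12 T-cell marker genes had a peak within 1 kb of a start in both lists, against 53.7% of all coding genes, and peaks do not measure expression.

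Near-identical sequence elsewhere in the genome was common at lncRNA-only promoters. A summit window of 301 bases had at least 1 other place on the main chromosomes, at 95% identity over 90% of its length, in 14.4% of members in replicate 1 (12.9 to 16.1) and 14.1% in replicate 2 (12.6 to 15.7). The share was 2.92% and 2.77% at coding-promoter peaks and 6.6% and 6.58% at distal peaks. In all, 268 regions were concerned, 51 of them on chromosome 16, which was 32.3% of its regions. Member medians with and without a copy were folds of 4.76 and 4.47 over control levels of 8.0 and 6.72 in replicate 1, and folds of 4.24 and 4.43 over control levels of 4.95 and 3.90 in replicate 2. How reads with several places were treated is not given in the sources used here, so signal at these regions may belong to either copy. Without such peaks 1562 and 1655 members and 1349 genes were left, and rho over the 1408 regions without a copy was 0.682.

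The largest disagreement between replicates, chosen after values were seen, was at ENSG00000289222 on chromosome 16, 2903507 to 2907316, with a fold of 64.5 in replicate 1 and 6.59 in replicate 2. Its summits lay at -314 bp in replicate 1 and 845 bp in replicate 2, and the fragments of the replicate 1 summit could not be solved. ENSG00000244459 on chromosome 4, 1580279 to 1581569, had a fold of 31.8 with 206 fragments in replicate 1 and of 5.31 with 25 fragments in replicate 2. There 33.4% of all words of 20 bases were repeated, against 0.9496% at ENSG00000289222, and the part of repeats in these folds was not tested.

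At the limits of the rule, the member farthest from a lncRNA start was 999 bp away in both replicates, with folds of 2.84 (chromosome 5, 132662945 to 132663273) and 4.03 (chromosome 16, 31403564 to 31403995). The nearest touching peaks outside the limit were 1001 bp away, with folds of 10.1 (chromosome 20, 36070096 to 36071440) and 12.9 (chromosome 19, 1870458 to 1874015). At the coding limit, the closest members lay 3013 bp from a coding start with a fold of 6.77 in replicate 1 and 3004 bp with 3.07 in replicate 2. Just inside that limit, and so left out, were peaks at 2996 bp with a fold of 4.18 and at 3000 bp with 9.80.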

How the data were processed

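According to the study's methods, the authors trimmed reads with fastp, aligned them to hg38 with Bowtie2 (2.2.5), removed duplicates with Picard and called peaks with MACS3, whose version is 3.0.1 in the submitters' processing notes. Each replicate has its own deposited peak list. It gave, per the authors' peak caller, a fold enrichment (a ratio over the local background), a −log10 p and −log10 q, a score and the summit offset. The deposited score was not used. Fragments and control level at a summit were solved from fold and −log10 p, which was possible for 99.887% of peaks in replicate 1 and 99.997% in replicate 2. Solved levels imply a control library, which the methods do not describe. Distances used GENCODE 44 transcript starts and hg38, and all peak ends lay within chromosome lengths. Distance and overlap steps were tested on simulated data and gave the brute-force answer for 100% of 2000 intervals. Summit windows were aligned with minimap2 2.31. Read totals are unknown, so depth is known only as fragments at summits.

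Members and lists were chosen with earlier results of these data known. Named were the 10 strongest regions by summed ranks of fold over both lists, listed snoRNA hosts, microRNA hosts, nuclear and T-cell lncRNAs (at most 8 regions a list), the genes with most members, T-lineage neighbours and the members at the limits. No test was run, since both samples form 1 group. Python 3.11.15, pandas 2.3.3, scipy 1.17.1 and pysam 0.24.0 were used.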

Additional observations from a re-analysis of the deposited data

How the results depend on the processing

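Counts, medians and shares were computed again under other settings, of which the removal of peaks with near-identical copies was chosen after seeing the data. Using only the top 10000 peaks per replicate by −log10 p left 310 members in replicate 1, 323 in replicate 2 and 342 genes, with a median fold of 7.497 and a GC content of 59.67%. A coding distance over 10 kb left 1258 members in replicate 2, with a fold of 4.36 and GC of 59.36%. A reciprocal overlap of 50% left 1274 in replicate 2, with a fold of 4.63, GC of 58.82% and a mean share touching the other list of 50.1%. A −log10 q of at least 5 gave a fold of 5.13 and GC of 59.14%. GC moved by more than the small spread between replicates also with a coding distance over 1 kb (58.91%), a lncRNA distance of 500 bp (59.24%), no other start within 1 kb (58.93%) and no near-identical copies (58.88%). With 1 replicate left out and no overlap asked, the number of genes ranged from 1902 to 2588, the fold from 4.01 to 4.23 and GC from 58.58% to 59.26%, and the members numbered 3091 in replicate 1 and 2166 in replicate 2. Of 74 values, 24 moved by more than 1 SD between replicates (medians and shares) or by more than 1.5 times (counts). Within 1.5 times, the number of genes still fell from 1611 to 1105 with a coding distance over 10 kb, to 1162 with the −log10 q limit and to 1210 with reciprocal overlap, and replicate 1 members fell from 1825 to 1222, 1256 and 1278. No paired analysis was possible because the 2 samples are replicates of a single group. The low fragment numbers of replicate 2, a median of 21 at members, limit its folds more than those of replicate 1.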
